A study of Mus musculus with 8 samples.

Results

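The p200 genes are a family of neighbouring genes on mouse chromosome 1 that encode interferon-inducible nuclear and cytosolic proteins, most of which join a pyrin domain to HIN domains that bind DNA. Members act as sensors of DNA in macrophages and lymphocytes, as partners of the adaptor Sting or of inflammasomes, and as regulators of transcription and cell growth. Type I interferon raises their transcription through a complex that holds Stat2 and Irf9 and binds a DNA element of the form GAAANNGAA. Liver macrophages, whether resident Kupffer cells (KCs) or bone marrow-derived macrophages (BMDMs), and the endothelial cells of the sinusoids all express interferon receptors. The 9 members described here, out of 32285 genes in the tables, were chosen by gene symbol and comprise Ifi203, Ifi204, Ifi206, Ifi207, Ifi208, Ifi209, Ifi211, Ifi213 and Mndal. Of the other family genes, Aim2, Ifi202b, Ifi205 and Ifi214 were also listed. Single cells were taken from 8 livers, 1 library each, of female C57BL/6J mice aged 9 weeks. The 4 control mice (replicates 1 to 4) were untreated, and the 4 BG-treated mice (replicates 5 to 8) had received 1.2 mg of the soluble beta-glucan odetiglucan (Imprime PGG) intravenously, with livers taken on day 2. Every library joined CD45+ cells with cells that a Ficoll gradient recovered from the remaining fraction, so neither group was a pure macrophage preparation. Values of mice are given in the order of their replicates throughout.

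On GRCm38, the assembly of mm10, the 9 members spanned 474.188 kb of chromosome 1, from 173468485 to 173942672, with 7 genes on the minus strand and 2 (Ifi208 and Ifi209) on the plus strand. In GENCODE vM21 the gene bodies were annotated, in order along the chromosome, as Ifi206 from 173468485 to 173491041, Ifi213 from 173566283 to 173599274, Ifi209 from 173630917 to 173647928, Ifi208 from 173673675 to 173698395, Ifi207 from 173723427 to 173741747 and Ifi204 from 173747293 to 173766943. They were followed by Mndal from 173849126 to 173942491, Ifi211 from 173896345 to 173913046 and Ifi203 from 173920407 to 173942672. The long Mndal annotation covers Ifi211 and the larger part of Ifi203 on the same strand, and introns were counted, so UMIs of these 3 genes cannot be fully told apart. The genes also resemble each other in their exons. Of all stretches of 60 bases in the annotated transcripts of Ifi211, 69.0% also occurred in transcripts of another gene, most often Ifi205. The corresponding shares were 28.4% for Ifi209, most often with Ifi214, and 21.6% for Ifi206, and they lay between 5.22% (Ifi207) and 16.7% (Ifi208) for the other members. Within the last 500 bases of the transcripts the shares were 72.3% for Ifi211 and 44.8% for Ifi209. There they lay between 0% (Ifi204) and 21.0% (Ifi206) for the other members. Reads from such stretches can be dropped or shared between genes, and values of Ifi211 and Ifi209 are the most exposed to it.

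Promoters of the family are shown as a description, and whether their sequences bear on the response to BG was not tested. RefSeq promoters (GRCm38.p6) were listed for 8 of the 9 members, and Ifi204 had no entry. Of these 8, 7 held GAAANNGAA on the gene's own strand within the 80 bases before the transcription start, with the match beginning 35 to 73 bases before it. The same held for 0.907% of 32851 promoters of all genes. In 6 of the 7 the letters were GAAATCGAA, and in Ifi211 they were GAAATTGAA. Ifi209 had no match in its window, which says only that these letters are not there. Over the whole promoter of 300 bases and either strand, 8.56% of all promoters held GAAANNGAA. A second motif, TTCNNNGAA, an element of other cytokine responses that reads the same on either strand, was found in no member promoter. The 80 bases before each start, in 5′ to 3′ direction on the gene's strand with the match in capitals, are as follows.
Ifi206 (chr1:173491319-173491398, minus strand): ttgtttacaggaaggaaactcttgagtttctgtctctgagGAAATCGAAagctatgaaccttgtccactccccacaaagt
Ifi213 (chr1:173599273-173599352, minus strand): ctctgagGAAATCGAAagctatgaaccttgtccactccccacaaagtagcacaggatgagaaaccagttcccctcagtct
Ifi208 (chr1:173673585-173673664, plus strand): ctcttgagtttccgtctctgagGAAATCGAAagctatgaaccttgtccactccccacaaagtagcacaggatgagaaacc
Ifi207 (chr1:173741810-173741889, minus strand): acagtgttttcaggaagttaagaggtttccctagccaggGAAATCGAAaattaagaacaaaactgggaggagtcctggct
Ifi211 (chr1:173913047-173913126, minus strand): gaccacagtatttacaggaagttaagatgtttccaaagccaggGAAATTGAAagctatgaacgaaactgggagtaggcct
Ifi203 (chr1:173942493-173942572, minus strand): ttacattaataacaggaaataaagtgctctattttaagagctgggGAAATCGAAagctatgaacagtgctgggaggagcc
Mndal (chr1:173880188-173880267, minus strand): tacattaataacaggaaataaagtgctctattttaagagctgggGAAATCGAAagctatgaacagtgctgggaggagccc
Ifi209 (chr1:173630779-173630858, plus strand): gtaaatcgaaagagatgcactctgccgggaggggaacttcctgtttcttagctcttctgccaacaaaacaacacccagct

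The windows of Ifi208 and Ifi213 shared an unbroken run of 65 bases, and that of Ifi206 shared 49 bases with Ifi208 and 47 with Ifi213, the match included. Those of Ifi203 and Mndal, for which RefSeq lists 2 starts each, shared a run of 79 bases. In both genes only 1 of the listed starts had the match in its window, and that start is printed. The promoter windows thus fall into sets of near copies, and matches within a set are not independent of each other.

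Libraries held 39612380 to 60654583 UMIs (unique molecular identifiers, each a counted RNA molecule). After the study's limits of 200 to 2500 detected genes and at most 30% mitochondrial UMIs, 4330 to 7790 cells per mouse remained, 48465 in all. BG replicate 5 stood apart, with a median of 34 genes per barcode, 66.6% mitochondrial UMIs and 4330 of 27873 barcodes kept, and each count of calls below was also made without it. Cells were assigned to classes by fixed marker genes that hold no p200 gene, and for 15 classes at least 3 mice per group had 10 cells or more. The libraries were labelled leukocytes, but 5739 sinusoidal endothelial cells and 574 hepatocytes were among the classes, each with all its check markers detected. KCs numbered 391 (10, 19, 89 and 48 in the control mice, 61, 27, 81 and 56 in the BG-treated mice), the class of monocytes and BMDMs 498, plasmacytoid dendritic cells (pDCs) 1259 and B cells 8667. T cells were split by UMIs of Cd4, Cd8a, Cd8b1 and Cxcr6 into Cxcr6 CD4 (2021), other CD4 (1333), CD8 (2904) and T cells without Cd4 or Cd8 UMIs (18230). The last class holds any T cell whose coreceptor was not caught in its counts. Levels are UMIs of a gene scaled to 1000000 UMIs of that class in that mouse (CPM), and since transcript ends are counted they were compared for 1 gene across classes, not between genes.

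In control livers the members fell into patterns by cell class (the plot of control levels by class). Ifi203 and Mndal were found in every class. Ifi203 was highest in sinusoidal endothelial cells at 415 ± 24.1 CPM (SD, n = 4 mice), followed by B cells at 367 ± 17.7 CPM and monocytes and BMDMs at 357 ± 53.6 CPM, and lowest in hepatocytes at 28.7 ± 19.6 CPM. The ranges over mice of sinusoidal endothelial cells and B cells did not overlap, whereas those of B cells and of monocytes and BMDMs did. Mndal, named after the human myeloid nuclear differentiation antigen, followed a like order, with 359 ± 16.8 CPM in sinusoidal endothelial cells, 339 ± 14.2 CPM in B cells, 305 ± 57.3 CPM in KCs and 303 ± 14.6 CPM in monocytes and BMDMs. Its UMIs overlap those of Ifi203 in annotation, as above. Ifi209 was highest in B cells (203 ± 10.4 CPM) and in monocytes and BMDMs (188 ± 26.0 CPM), whose ranges overlapped. Sinusoidal endothelial cells had only 20.8 ± 8.27 CPM of it, near the 21.8 ± 11.1 CPM of hepatocytes.

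Ifi204, Ifi207 and Ifi211 had their highest means in monocytes and BMDMs. Ifi204 encodes p204, which takes part in macrophage differentiation and in the sensing of cytosolic DNA. It stood at 348 ± 34.3 CPM in monocytes and BMDMs and 333 ± 54.0 CPM in KCs, with overlapping ranges, and at 194 ± 16.6 CPM in sinusoidal endothelial cells, against 1.99 ± 0.988 CPM in B cells. For Ifi204 the mean of sinusoidal endothelial cells was above those of patrolling monocytes at 166 ± 116 CPM, neutrophils at 102 ± 73.2 CPM and pDCs at 11.8 ± 5.01 CPM, although the ranges of the first 2 of these reached into that of sinusoidal endothelial cells. Ifi207 was at 295 ± 17.2 CPM in monocytes and BMDMs, 229.9 ± 96.6 CPM in KCs, 102 ± 9.35 CPM in sinusoidal endothelial cells and 63.0 ± 21.9 CPM in pDCs, and at 3.17 ± 0.903 CPM in CD8 T cells. Ifi211 was at 118 ± 28.3 CPM in monocytes and BMDMs and 82.6 ± 19.2 CPM in type 1 conventional dendritic cells (cDC1), whose ranges overlapped, and at 32.6 ± 12.2 CPM in KCs. In T cells, NK cells and B cells Ifi211 did not exceed 2.06 CPM.

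Ifi206 and Ifi208 had their highest means in Cxcr6 CD4 T cells. Ifi206 was at 79.2 ± 16.0 CPM in Cxcr6 CD4 T cells and 67.4 ± 3.14 CPM in T cells without Cd4 or Cd8, at 40.9 ± 4.92 CPM in B cells and at 20.2 ± 3.81 CPM in sinusoidal endothelial cells. Ifi208 was at 94.5 ± 14.8 CPM in Cxcr6 CD4 T cells and 12.2 ± 9.13 CPM in monocytes and BMDMs. Ifi213 had its highest means in monocytes and BMDMs (66.7 ± 15.3 CPM) and in Cxcr6 CD4 T cells (56.9 ± 18.8 CPM), whose ranges overlapped. In the order of the 15 classes, neighbours mostly could not be separated. Of the 14 neighbouring pairs, the ranges over control mice overlapped for 12 to 14, depending on the member.

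**Figure D1:**
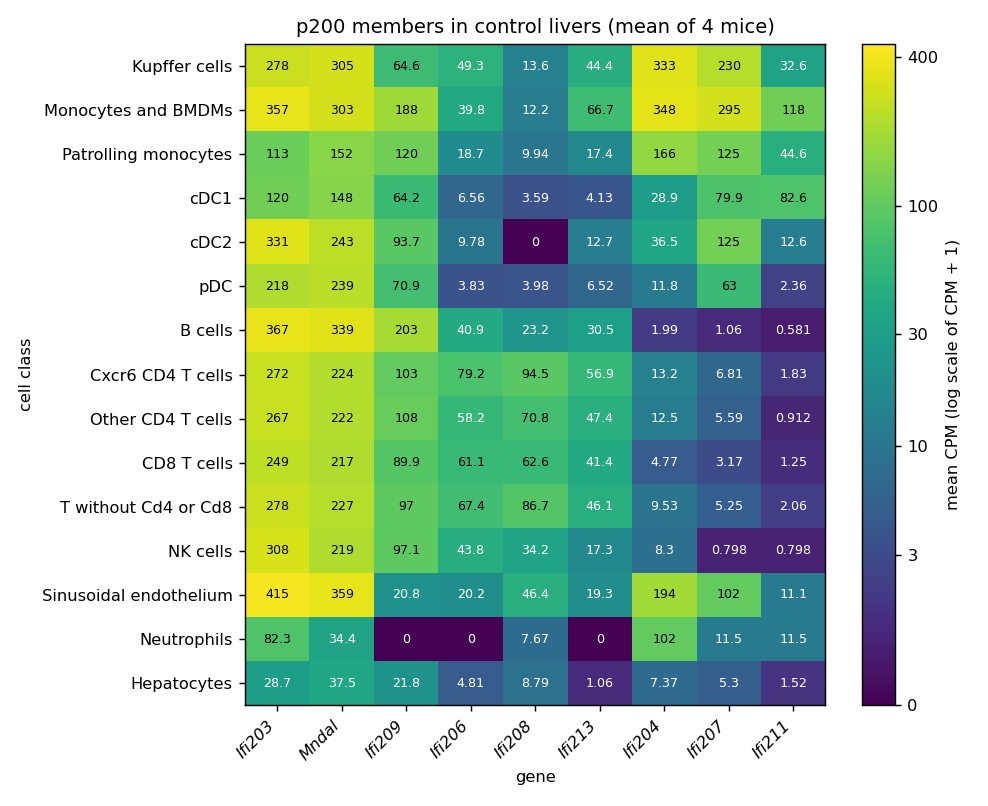
Mean CPM of each member (columns) in each cell class (rows) over the 4 control mice, on a colour scale that is logarithmic in CPM + 1, with the mean printed in each cell. Ifi203 and Mndal are bright in nearly every row. Ifi204, Ifi207 and Ifi211 have their highest means in monocytes and BMDMs and are at most 13.2 CPM in the B, T and NK cell rows. Ifi204 and Ifi207 are also bright in KCs, patrolling monocytes and sinusoidal endothelium, and Ifi211 is higher in cDC1 and patrolling monocytes than in KCs.

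Summed over the 9 members, which is a description with no test, the family was highest in monocytes and BMDMs (1729 ± 78.7 CPM), KCs (1350.4 ± 283 CPM), sinusoidal endothelial cells (1188 ± 74.8 CPM) and B cells (1008 ± 41.1 CPM). The T cell classes lay between 730.2 and 851 CPM, pDCs were at 619.5 ± 121 CPM, neutrophils at 249.6 ± 66.3 CPM and hepatocytes at 117 ± 43.8 CPM. Of the 14 neighbouring pairs in this order, ranges overlapped for 9. Genes whose control level followed the summed family most closely across the 15 classes were Rap1gds1 (Pearson r = 0.886), Nsf (Pearson r = 0.883), Rnf111 (Pearson r = 0.874), Actr1a (Pearson r = 0.873) and Tor3a (Pearson r = 0.867), among 6362 genes compared. These points share libraries and depth. After BG the summed level was 2844 ± 221 CPM in monocytes and BMDMs, 1948 ± 244 CPM in KCs, 2041 ± 159.6 CPM in sinusoidal endothelial cells and 1720.0 ± 123 CPM in B cells, and in each of these 4 classes every BG-treated mouse lay above every control mouse. In NK cells it was 729 ± 56.4 CPM in control and 851 ± 93.0 CPM in BG-treated mice, and there the groups overlapped.

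**Figure D2:**
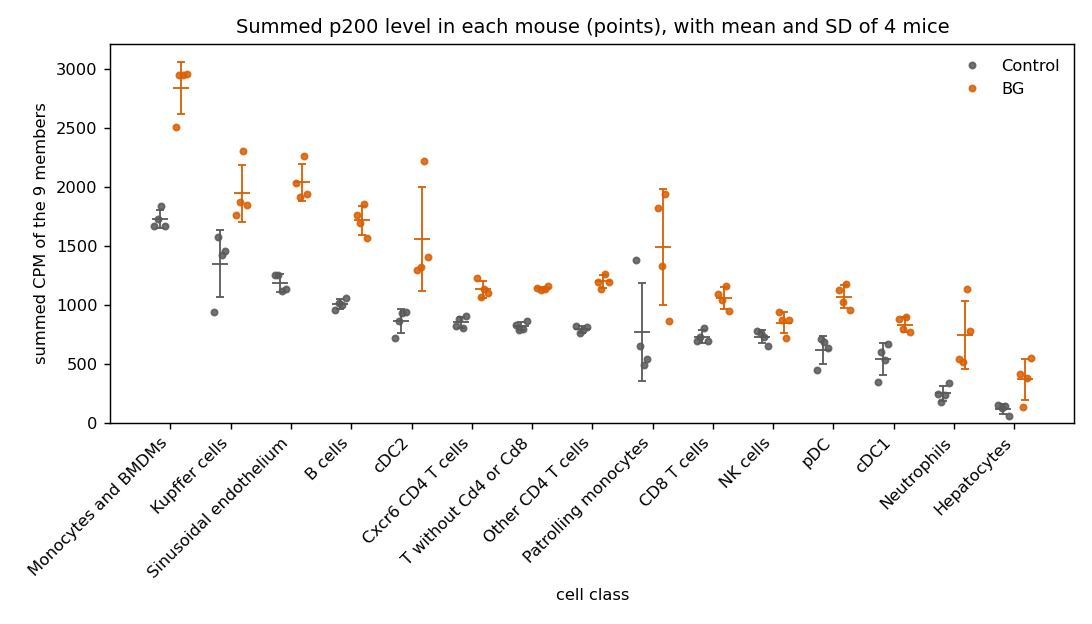
Summed CPM of the 9 members (vertical axis, from 0) in each cell class (horizontal axis, ordered by control mean), with 1 point per mouse and the mean and SD of 4 mice as bars, control in grey and BG in orange. BG-treated mice lie above all control mice in 12 of the 15 classes, and the groups overlap in patrolling monocytes, NK cells and hepatocytes. The classes come from the same mice, and the share of all genes whose groups separate in this way was not computed.

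BG raised p200 members in 9 of the 13 classes in which any member passed the filter on low counts, and lowered none. Of 85 pairs of member and class tested, 36 were called higher and 0 lower, and 84 had a positive log2 fold change (the plot of fold changes by class). Calling a gene required edgeR's quasi-likelihood test to give an adjusted p under 0.05 together with a log2 fold change, BG over control, above 0.5 or below -0.5. Here p was adjusted over all genes tested in the class (Benjamini-Hochberg), and SE stands for the standard error of the log2 fold change. Ifi206 was called in 7 of the 9 classes that tested it, Ifi213 in 6 of 7 and Ifi208 in 5 of 8. Ifi203 and Mndal were each called in 4 of 13, Ifi209 in 3 of 13, Ifi211 in 3 of 5, Ifi207 in 2 of 9 and Ifi204 in 2 of 8. Mice, not cells, were the replicates (n = 4 per group), and the classes come from the same mice. Whether groups overlapped is given as a description. A call makes groups without overlap likely, as in all 36 called pairs, and their share over all tested genes was not computed. The filter also keeps a gene that is frequent enough in 1 group only, so counts and medians over tested members describe those members and not the whole family. Without BG replicate 5, the library that stood apart, 35 of the 36 calls held. The labels do not say whether mice were treated in separate batches, so p-values measure the spread between these mice.

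**Figure D3:**
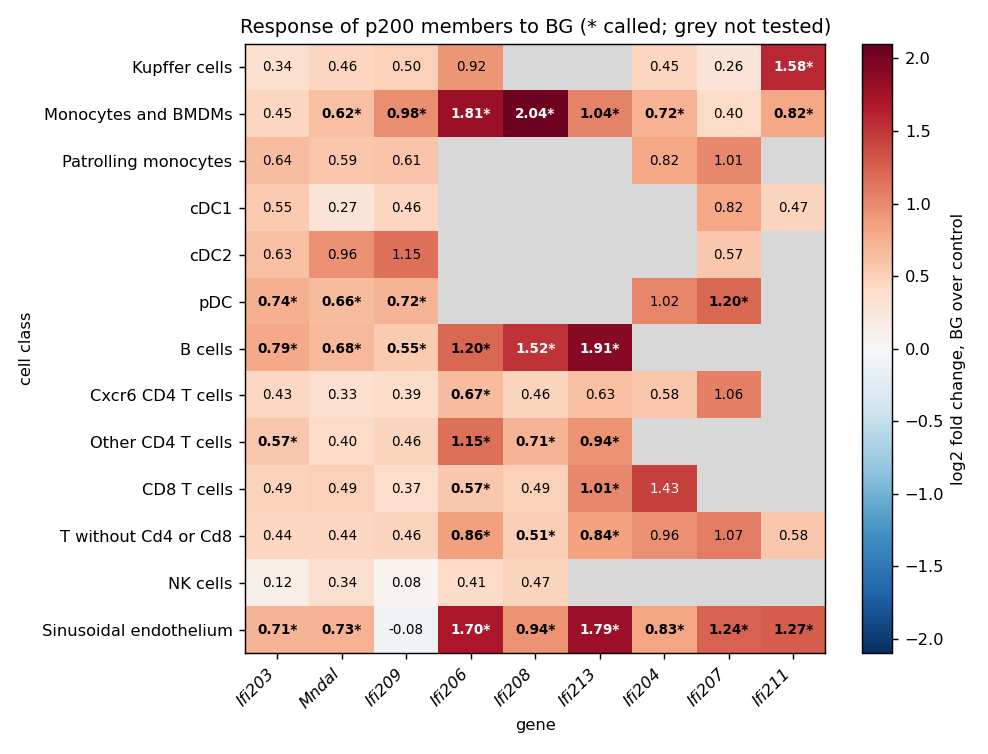
Log2 fold change, BG over control, of each member (columns) in each cell class (rows), from the edgeR fit over mice. Asterisks and bold type mark the 36 called pairs, and grey cells are members that did not pass the filter on low counts. Nearly all values are above 0, and -0.08 for Ifi209 in sinusoidal endothelium is the only value below 0.

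Sinusoidal endothelial cells, the fenestrated lining of liver capillaries, raised 8 of the 9 members, and Ifi209 alone did not pass the test. Over all 10021 genes tested in these cells, 1.05% were called higher and 0.0699% lower. The median log2 fold change of the members was 0.94, against -0.01 over all tested genes. Ifi203 was at 445, 415, 386 and 412 CPM in the control mice and 609.7, 615, 724 and 641 CPM in the BG-treated mice. Mndal was at 369, 378, 351 and 340.5 CPM in the control mice and 548, 554, 619.8 and 559 CPM in the BG-treated mice. Both broadly expressed members rose, with log2 fold changes of 0.71 (SE 0.10, adjusted p = 0.000514) for Ifi203 and 0.73 (SE 0.09, adjusted p = 0.000228) for Mndal. Ifi204 was at 211, 204, 176 and 184 CPM in the control mice and 315, 329, 376 and 294 CPM in the BG-treated mice. Ifi207 was at 114, 106, 95.1 and 94.2 CPM in the control mice and 224, 229.6, 256 and 212 CPM in the BG-treated mice. Ifi211 was at 13.3, 14.7, 9.14 and 7.35 CPM in the control mice and 30.8, 21.1, 27.4 and 22.8 CPM in the BG-treated mice. These members, which had their highest means in monocytes and BMDMs, had log2 fold changes of 0.83 (SE 0.11, adjusted p = 0.000224) for Ifi204, 1.24 (SE 0.10, adjusted p = 4.29e-06) for Ifi207 and 1.27 (SE 0.23, adjusted p = 0.00571) for Ifi211.

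Ifi213 and Ifi206 had the highest log2 fold changes of the members in sinusoidal endothelial cells. Ifi206 was at 15.1, 24.3, 21.2 and 20.3 CPM in the control mice and 83.7, 48.9, 70.8 and 63.2 CPM in the BG-treated mice. Ifi208 was at 52.4, 54.8, 39.9 and 38.5 CPM in the control mice and 102, 69.4, 99.1 and 70.2 CPM in the BG-treated mice. Ifi213 was at 23.1, 22.6, 17.0 and 14.7 CPM in the control mice and 76.0, 41.1, 80.5 and 57.9 CPM in the BG-treated mice. Their log2 fold changes were 1.70 (SE 0.19, adjusted p = 4.96e-05) for Ifi206, 0.94 (SE 0.17, adjusted p = 0.0054) for Ifi208 and 1.79 (SE 0.23, adjusted p = 0.000228) for Ifi213. For all 8 called members the groups of mice did not overlap. Ifi209 was at 11.5, 31.6, 19.1 and 20.7 CPM in the control mice and 45.2, 11.0, 13.9 and 21.1 CPM in the BG-treated mice. The groups overlapped, and the log2 fold change was -0.08 (SE 0.36, adjusted p = 0.993). Its sign turned without control replicate 2 (0.18), BG replicate 6 (0.25) or BG replicate 7 (0.07). The 8 calls held in edgeR without any 1 mouse and in DESeq2. At most 10% mitochondrial UMIs left 14.0% of the cells, and there 4 members were called, with adjusted p = 0.0512 for Ifi213, 0.102 for Ifi206 and 0.732 for Ifi208. The 7 markers of monocytes and BMDMs summed to 30.2 to 69.8 CPM in the control mice and 44.2 to 78.4 CPM in the BG-treated mice, the 8 markers of KCs to 7.11 to 33.6 CPM in the control mice and 16.3 to 40.1 CPM in the BG-treated mice and the 6 T cell markers to 282 to 479 CPM in the control mice and 212 to 612 CPM in the BG-treated mice. With only cells free of T cell receptor and CD3 UMIs, 8 members were called.

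B cells raised all 6 members that passed the filter. Over all 8448 genes tested in these cells, 1.31% were called higher and 0.166% lower, and the members' median log2 fold change was 0.99, against -0.00 for all tested genes. Ifi203 was at 341, 371, 377 and 379.6 CPM in the control mice and 620.1, 629, 653 and 572 CPM in the BG-treated mice. Mndal was at 331, 349.7, 324 and 353 CPM in the control mice and 548, 528, 573 and 472 CPM in the BG-treated mice. Ifi209 was at 198, 193, 202 and 217 CPM in the control mice and 293, 293, 285 and 286 CPM in the BG-treated mice. These 3 rose with log2 fold changes of 0.79 (SE 0.09, adjusted p = 7.18e-06) for Ifi203, 0.68 (SE 0.10, adjusted p = 0.000115) for Mndal and 0.55 (SE 0.09, adjusted p = 0.000354) for Ifi209. Ifi206 was at 39.3, 39.0, 37.1 and 48.1 CPM in the control mice and 87.2, 86.7, 116 and 78.3 CPM in the BG-treated mice. Ifi208 was at 23.1, 21.4, 21.8 and 26.6 CPM in the control mice and 75.05, 59.0, 76.4 and 53.4 CPM in the BG-treated mice. Ifi213 was at 27.0, 33.3, 31.7 and 30.2 CPM in the control mice and 131, 93.1, 139.9 and 88.6 CPM in the BG-treated mice. Log2 fold changes of the latter 3 were 1.20 (SE 0.14, adjusted p = 5.76e-06) for Ifi206, 1.52 (SE 0.15, adjusted p = 7.31e-07) for Ifi208 and 1.91 (SE 0.16, adjusted p = 1.01e-07) for Ifi213. None of the 6 had overlapping groups. Ifi204, Ifi207 and Ifi211 had 22, 11 and 6 UMIs in all control B cells and 25, 17 and 13 after BG and were not tested. Markers of other cells were higher after BG in these cells, as the 7 markers of monocytes and BMDMs summed to 235 to 249 CPM in the control mice and 287 to 384 CPM in the BG-treated mice and the 8 of sinusoidal endothelial cells to 65.6 to 97.9 CPM in the control mice and 98.3 to 158 CPM in the BG-treated mice, without overlap. F13a1 and Vcan were at 0. The 7 B cell markers summed to 7019 to 7566 CPM in the control mice and 6380.3 to 7021 CPM in the BG-treated mice. The part of these markers in the result was not tested. All 6 calls held without any 1 mouse, in DESeq2 and in B cells free of T cell receptor and CD3 UMIs. At most 10% mitochondrial UMIs left 13.5% of the B cells and 7 mice. Ifi213 did not pass the filter there, and edgeR called 0 of the other members, at log2 fold changes of 0.59 to 0.98.

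Monocytes and BMDMs, which a single gate held together, raised 7 of the 9 members. Over all 3421 genes tested in these cells, 1.9% were called higher and 0.351% lower, and the median log2 fold change was 0.82 for the members and -0.00 for all tested genes. Ifi204 was at 350.5, 327, 396 and 320.0 CPM in the control mice and 467, 579, 582 and 693 CPM in the BG-treated mice. Ifi211 was at 119.5, 115, 153 and 84.2 CPM in the control mice and 179.5, 192, 246 and 198 CPM in the BG-treated mice. Ifi207 was at 272, 304, 294 and 312 CPM in the control mice and 395, 502, 343 and 353 CPM in the BG-treated mice. Of these 3 the first 2 were called, at log2 fold changes of 0.72 (SE 0.14, adjusted p = 0.0106) for Ifi204 and 0.82 (SE 0.19, adjusted p = 0.0311) for Ifi211. Ifi207 was not, at 0.40 (SE 0.13, adjusted p = 0.185), although its groups did not overlap. Ifi209 was at 174, 174, 179 and 227 CPM in the control mice and 355, 383, 363 and 399 CPM in the BG-treated mice. Mndal was at 291, 318, 313 and 290.5 CPM in the control mice and 381, 447, 546 and 505 CPM in the BG-treated mice. Ifi203 was at 391, 368, 389.6 and 278 CPM in the control mice and 413, 511, 526 and 530.2 CPM in the BG-treated mice. Ifi209 rose with a log2 fold change of 0.98 (SE 0.13, adjusted p = 0.000842), Mndal followed with 0.62 (SE 0.14, adjusted p = 0.028), and Ifi203 missed the call at 0.45 (SE 0.14, adjusted p = 0.152).

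Ifi208, Ifi206 and Ifi213 had the highest log2 fold changes in this class. Ifi206 was at 24.5, 35.4, 44.7 and 54.7 CPM in the control mice and 171, 140.5, 127 and 106 CPM in the BG-treated mice. Ifi208 was at 5.43, 11.8, 6.39 and 25.3 CPM in the control mice and 58.3, 63.9, 45.7 and 38.9 CPM in the BG-treated mice. Ifi213 was at 46.2, 76.6, 63.9 and 79.99 CPM in the control mice and 94.2, 132, 175 and 134 CPM in the BG-treated mice. All 3 were called, with log2 fold changes of 1.81 (SE 0.26, adjusted p = 0.00134) for Ifi206, 2.04 (SE 0.41, adjusted p = 0.0156) for Ifi208 and 1.04 (SE 0.24, adjusted p = 0.0311) for Ifi213. Control levels of Ifi208 rested on 13 UMIs in all, against 57 after BG. Calls of 4 members depended on single mice. Ifi213 was not called without control replicate 1, control replicate 2, control replicate 3, control replicate 4, BG replicate 6, BG replicate 7 and BG replicate 8 (adjusted p 0.0514 to 0.178). Ifi211 was not called without control replicate 1, control replicate 2, control replicate 4, BG replicate 7 and BG replicate 8 (adjusted p 0.07 to 0.164). Mndal was not called without control replicate 1, control replicate 2, control replicate 4, BG replicate 7 and BG replicate 8 (adjusted p 0.0642 to 0.138). Ifi208 was not called without control replicate 1, control replicate 2 and BG replicate 6 (adjusted p 0.0546 to 0.0726). The 6 T cell markers summed to 159.7 to 291 CPM in the control mice and 152 to 426 CPM in the BG-treated mice, and with only cells free of T cell receptor and CD3 UMIs 4 members were called, namely Ifi204, Ifi206, Ifi209 and Ifi213. Mndal and Ifi211 then had adjusted p = 0.094 and 0.0566, and Ifi208 did not pass the filter. Over all mice, the 4 check markers of neutrophils summed to 10831 CPM in monocytes and BMDMs, against 79390 CPM in neutrophils. The neutrophil markers used to assign cells summed to 195 CPM in monocytes and BMDMs, against 12640 CPM in neutrophils. The part of neutrophil RNA in these values was not tested. DESeq2 called 5 members, with adjusted p = 0.0851 for Ifi213 and 0.0742 for Ifi211. At most 10% mitochondrial UMIs left 38.4% of the cells. Ifi206 and Ifi208 did not pass the filter there, and edgeR called 0 of the members tested, at log2 fold changes of 0.34 to 0.69.

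KCs, the resident macrophages of the sinusoids, raised 1 of the 7 members tested, Ifi211. Over all 2215 genes tested in these cells, 0.858% were called higher and 0.181% lower, and the median log2 fold change was 0.46 for the members, all 7 of them positive, and -0.01 for all tested genes. Ifi211 was at 29.3, 19.0, 33.7 and 48.4 CPM in the control mice and 70.8, 86.0, 136 and 119.8 CPM in the BG-treated mice. The groups did not overlap, and the log2 fold change was 1.58 (SE 0.39, adjusted p = 0.0436). Ifi204 was at 264, 343, 329.8 and 395 CPM in the control mice and 349, 550.1, 558 and 437 CPM in the BG-treated mice. Ifi207 was at 117, 343, 266 and 194 CPM in the control mice and 293, 292, 325 and 228 CPM in the BG-treated mice. These members, high in KCs of either group, did not pass the test, at log2 fold changes of 0.45 (SE 0.20, adjusted p = 0.326) for Ifi204 and 0.26 (SE 0.23, adjusted p = 0.711) for Ifi207. Ifi203 was at 147, 343, 236 and 387 CPM in the control mice and 312, 344, 429 and 341 CPM in the BG-treated mice. Mndal was at 235, 304, 375 and 306 CPM in the control mice and 420.3, 429.8, 449 and 467 CPM in the BG-treated mice. Nor did these 2, at log2 fold changes of 0.34 (SE 0.22, adjusted p = 0.582) for Ifi203 and 0.46 (SE 0.19, adjusted p = 0.28) for Mndal. The groups of Mndal did not overlap, whereas those of Ifi203, Ifi204 and Ifi207 did.

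Values of the remaining members in KCs rested on few UMIs, as did those of Ifi211 in the control mice. Ifi206 was at 29.3, 95.1, 48.7 and 24.2 CPM in the control mice and 113, 34.4, 84.3 and 83.9 CPM in the BG-treated mice. Ifi209 was at 58.6, 57.1, 86.2 and 56.5 CPM in the control mice and 104, 34.4, 140.4 and 71.9 CPM in the BG-treated mice. Their groups overlapped, and the log2 fold changes were 0.92 (SE 0.41, adjusted p = 0.326) for Ifi206 and 0.50 (SE 0.35, adjusted p = 0.611) for Ifi209. Ifi208 was at 0, 19.0, 11.2 and 24.2 CPM in the control mice and 56.7, 86.0, 76.2 and 53.9 CPM in the BG-treated mice. Ifi208 rested on 7 UMIs in control and 45 in BG-treated mice, its groups did not overlap, and it was left out of the test by the filter on low counts. The 0 of control replicate 1 allows up to 88.0 CPM, which is 3 UMIs in that mouse and covers counting error only. The 29.3 CPM of Ifi211 in that mouse thus rested on fewer than 3 UMIs. Without the filter Ifi208 was called, with a log2 fold change of 2.16 (adjusted p = 0.0361). Ifi213 was at 58.6, 57.1, 37.5 and 24.2 CPM in the control mice and 47.2, 17.2, 108 and 41.9 CPM in the BG-treated mice. It had 18 and 45 UMIs, overlapping groups and no test.

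The counts of KCs were small, with 34105 UMIs in all for control replicate 1, and the single call rested on individual mice. Ifi211 was not called without control replicate 1, control replicate 2, control replicate 3, control replicate 4 and BG replicate 6 (adjusted p 0.0579 to 0.197). DESeq2 called 0 of the members in KCs, giving no adjusted p for Ifi211. In edgeR 4 of the 7 had an unadjusted p under 0.05, as had 291 of all 2215 tested genes. All 6 T cell markers had UMIs in KCs and summed to 282 to 850.3 CPM in the control mice and 321 to 746 CPM in the BG-treated mice, and 33.0% of KCs had a T cell receptor or CD3 UMI. All 7 markers of monocytes and BMDMs had UMIs too, at 2721 to 7758 CPM in the control mice and 2183 to 2659 CPM in the BG-treated mice. They were thus lower after BG, without overlap. In KCs free of T cell receptor and CD3 UMIs, from 7 mice, 4 members were tested and 0 called, with log2 fold changes from -0.03 for Ifi203 to 0.45 for Ifi204. Ifi211 did not pass the filter in that fit, so its call could not be checked there. The part of these other cells in the KC values was not tested beyond this.

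**Figure D4:**
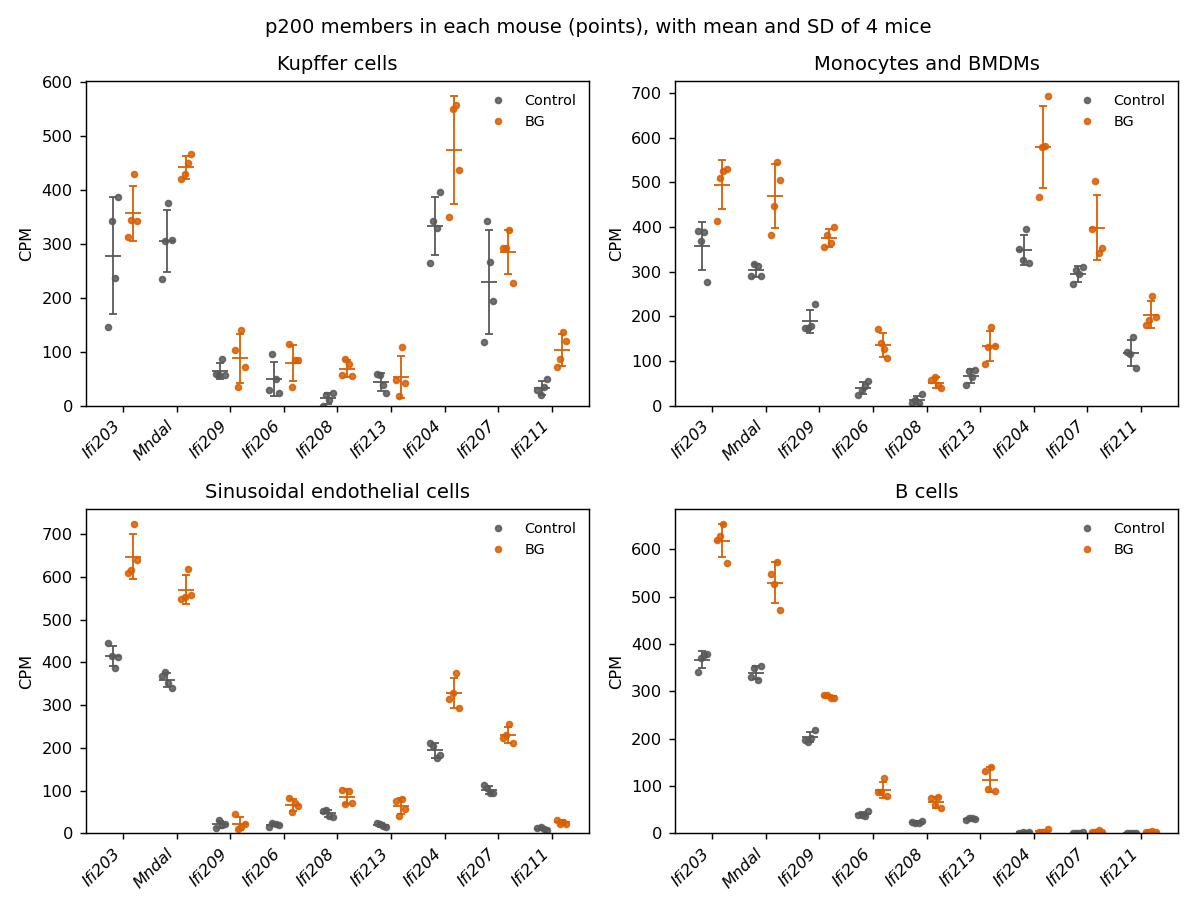
CPM of the 9 members in each mouse (points) for KCs, monocytes and BMDMs, sinusoidal endothelial cells and B cells, with the mean (dash) and SD (bars) of 4 control mice in grey and 4 BG-treated mice in orange. In B cells and sinusoidal endothelial cells the groups stand apart for every called member, and in KCs the wide spread of the control mice shows for Ifi203 and Ifi207.

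Plasmacytoid dendritic cells, which make type I interferon in large amounts, raised 4 of 5 members tested. Over all 6622 genes tested in these cells, 0.529% were called higher and 0.0906% lower, and the median log2 fold change was 0.74 for the members and 0.00 for all tested genes. Ifi203 was at 160.2, 268, 229 and 217 CPM in the control mice and 421, 304, 414 and 332 CPM in the BG-treated mice. Mndal was at 181, 266, 280.1 and 228 CPM in the control mice and 331, 418, 408 and 322 CPM in the BG-treated mice. Ifi209 was at 60.4, 78.6, 70.03 and 74.6 CPM in the control mice and 137, 107, 115 and 114 CPM in the BG-treated mice. All 3 rose, with log2 fold changes of 0.74 (SE 0.14, adjusted p = 0.00333) for Ifi203, 0.66 (SE 0.12, adjusted p = 0.00333) for Mndal and 0.72 (SE 0.14, adjusted p = 0.00747) for Ifi209. Ifi207 was at 32.5, 64.8, 84.3 and 70.5 CPM in the control mice and 129, 147, 179.7 and 135 CPM in the BG-treated mice. It had a log2 fold change of 1.20 (SE 0.17, adjusted p = 0.000156), and no called member had overlapping groups. Ifi204 did not pass the test at 1.02 (SE 0.33, adjusted p = 0.238). DESeq2 called 3 of the 4, with an adjusted p of 0.0808 for Ifi209, and in edgeR all 4 calls held without any 1 mouse. The 7 markers of monocytes and BMDMs summed to 1309 to 1422 CPM in the control mice and 1372 to 1464 CPM in the BG-treated mice.

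Members also rose in the T cell classes. In T cells without Cd4 or Cd8, 3 of 9 were called. Over all 11419 genes tested in these cells, 2.03% were called higher and 0.21% lower, and the median log2 fold change was 0.58 for the members and -0.01 for all tested genes. Ifi206 was at 65.0, 70.7, 64.5 and 69.6 CPM in the control mice and 119, 124, 120.3 and 109 CPM in the BG-treated mice. Ifi208 was at 85.02, 81.2, 78.0 and 103 CPM in the control mice and 115, 134, 121 and 108 CPM in the BG-treated mice. Ifi213 was at 43.0, 48.4, 43.4 and 49.7 CPM in the control mice and 85.4, 76.2, 86.8 and 70.3 CPM in the BG-treated mice. The groups did not overlap, and the log2 fold changes were 0.86 (SE 0.08, adjusted p = 0.000118) for Ifi206, 0.51 (SE 0.10, adjusted p = 0.0109) for Ifi208 and 0.84 (SE 0.10, adjusted p = 0.000606) for Ifi213. Ifi203, Mndal and Ifi209 passed the adjusted p but stayed under the fold limit, at 0.44 (SE 0.07, adjusted p = 0.00293), 0.44 (SE 0.07, adjusted p = 0.00364) and 0.46 (SE 0.07, adjusted p = 0.00256). Ifi204, Ifi207 and Ifi211, with 273, 154 and 62 UMIs in all control cells of the class, were not called, at 0.96 (SE 0.27, adjusted p = 0.0858), 1.07 (SE 0.32, adjusted p = 0.101) and 0.58 (SE 0.26, adjusted p = 0.289). Ifi208 was not called without control replicate 1, control replicate 2, control replicate 3, BG replicate 6 and BG replicate 7 (adjusted p 0.0299 to 0.0538, log2 fold change 0.46 to 0.49). Ifi209 was called without BG replicate 6 (adjusted p 0.00215, log2 fold change 0.51). DESeq2 called 5 members, among them Ifi204 and Ifi207. The 7 markers of monocytes and BMDMs summed to 208 to 252 CPM in the control mice and 222 to 259 CPM in the BG-treated mice in this class.

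Other CD4 T cells, with Cd4 and without Cxcr6 UMIs, raised 4 of 6 members tested. Over all 5688 genes tested in these cells, 0.967% were called higher and 0.281% lower, and the median log2 fold change was 0.64 for the members and -0.01 for all tested genes. Ifi203 was at 305, 239, 271 and 253 CPM in the control mice and 423, 362, 396 and 410.3 CPM in the BG-treated mice. Ifi206 was at 50.1, 61.8, 64.0 and 56.7 CPM in the control mice and 117, 122, 161 and 113 CPM in the BG-treated mice. Ifi208 was at 75.9, 66.1, 64.0 and 77.4 CPM in the control mice and 105, 105, 133 and 118 CPM in the BG-treated mice. Each of these 3 was higher in every BG-treated mouse than in any control mouse. Ifi213 was at 36.5, 55.4, 56.4 and 41.3 CPM in the control mice and 100.4, 98.0, 79.0 and 86.4 CPM in the BG-treated mice. It did not overlap either, and the log2 fold changes were 0.57 (SE 0.12, adjusted p = 0.00855) for Ifi203, 1.15 (SE 0.18, adjusted p = 0.000237) for Ifi206, 0.71 (SE 0.16, adjusted p = 0.0192) for Ifi208 and 0.94 (SE 0.19, adjusted p = 0.00759) for Ifi213. Mndal and Ifi209 were not called, at 0.40 (SE 0.12, adjusted p = 0.105) and 0.46 (SE 0.15, adjusted p = 0.175). Ifi203 was not called without BG replicate 5 (adjusted p 0.0579, log2 fold change 0.52). Ifi208 was not called without control replicate 2, control replicate 3 and BG replicate 7 (adjusted p 0.0654 to 0.129, log2 fold change 0.62 to 0.68). DESeq2 called 2 members, with adjusted p = 0.0649 for Ifi213 and 0.18 for Ifi208.

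CD8 T cells raised 2 of 7 members tested. Over all 7774 genes tested in these cells, 0.733% were called higher and 0.154% lower, and the median log2 fold change was 0.49 for the members and -0.00 for all tested genes. Ifi206 was at 61.4, 54.0, 73.7 and 55.4 CPM in the control mice and 87.5, 94.4, 90.0 and 95.3 CPM in the BG-treated mice. Ifi213 was at 46.7, 34.4, 52.0 and 32.3 CPM in the control mice and 99.7, 82.7, 95.5 and 63.8 CPM in the BG-treated mice. Without overlap of the groups, they had log2 fold changes of 0.57 (SE 0.12, adjusted p = 0.0145) for Ifi206 and 1.01 (SE 0.17, adjusted p = 0.00194) for Ifi213. Not called were Ifi203 at 0.49 (SE 0.11, adjusted p = 0.0199), Mndal at 0.49 (SE 0.11, adjusted p = 0.0293), Ifi208 at 0.49 (SE 0.12, adjusted p = 0.0446), Ifi209 at 0.37 (SE 0.13, adjusted p = 0.233) and Ifi204 at 1.43 (SE 0.38, adjusted p = 0.073). Ifi206 was not called without control replicate 1, control replicate 4 and BG replicate 8 (adjusted p 0.0519 to 0.0677, log2 fold change 0.53 to 0.57). Ifi203 was called without control replicate 3, control replicate 4, BG replicate 6 and BG replicate 8 (adjusted p 0.0127 to 0.0423, log2 fold change 0.50 to 0.56). Mndal was called without control replicate 2, control replicate 3, BG replicate 6 and BG replicate 8 (adjusted p 0.0207 to 0.0424, log2 fold change 0.52 to 0.56). Ifi204 was called without control replicate 2 (adjusted p 0.0198, log2 fold change 1.88). DESeq2 called 1 member, with adjusted p = 0.0961 for Ifi206.

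Cxcr6 CD4 T cells, which share the liver sinusoids with KCs, raised 1 of 8 members tested. Over all 7548 genes tested in these cells, 1.92% were called higher and 0.411% lower, and the median log2 fold change was 0.52 for the members and -0.01 for all tested genes. Ifi206 was at 83.5, 78.5, 58.1 and 96.6 CPM in the control mice and 117, 118, 142 and 109.5 CPM in the BG-treated mice. The groups did not overlap, and the log2 fold change was 0.67 (SE 0.15, adjusted p = 0.0204). Not called were Ifi203 at 0.43 (SE 0.10, adjusted p = 0.0265), Mndal at 0.33 (SE 0.12, adjusted p = 0.169), Ifi209 at 0.39 (SE 0.12, adjusted p = 0.0978), Ifi208 at 0.46 (SE 0.14, adjusted p = 0.0892), Ifi213 at 0.63 (SE 0.21, adjusted p = 0.115), Ifi204 at 0.58 (SE 0.40, adjusted p = 0.523) and Ifi207 at 1.06 (SE 0.46, adjusted p = 0.257). Ifi206 was not called without control replicate 2, control replicate 3 and BG replicate 7 (adjusted p 0.053 to 0.086, log2 fold change 0.55 to 0.67). Ifi213 was called without control replicate 4 (adjusted p 0.0276, log2 fold change 0.87). Ifi208 was called without BG replicate 8 (adjusted p 0.0311, log2 fold change 0.57). Ifi207 was called without control replicate 3 (adjusted p 0.0311, log2 fold change 1.98). With up to 5000 genes per cell, 4 members were called.

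No member was called in NK cells, patrolling monocytes, cDC1 and cDC2, where every member tested had a positive log2 fold change. In NK cells 5 members were tested, and 1 had an unadjusted p under 0.05 in edgeR, as had 443 of all 3606 tested genes. There edgeR and DESeq2 each called 0 members, where 0.444% of all tested genes were called higher and 0.222% lower. DESeq2 gave no adjusted p for Ifi206, Ifi208 and Ifi209 there and so could call only Ifi203 or Mndal. The log2 fold changes in NK cells were 0.12 (SE 0.15, adjusted p = 0.821) for Ifi203, 0.34 (SE 0.17, adjusted p = 0.399) for Mndal, 0.41 (SE 0.30, adjusted p = 0.653) for Ifi206, 0.47 (SE 0.32, adjusted p = 0.607) for Ifi208 and 0.08 (SE 0.24, adjusted p = 0.931) for Ifi209. In patrolling monocytes 5 members were tested, and 2 had an unadjusted p under 0.05 in edgeR, as had 130 of all 1502 tested genes. Here edgeR and DESeq2 each called 0 members, where 0.266% of all tested genes were called higher and 0% lower. The log2 fold changes there were 0.64 (SE 0.32, adjusted p = 0.596) for Ifi203, 0.59 (SE 0.37, adjusted p = 0.731) for Mndal, 0.82 (SE 0.35, adjusted p = 0.51) for Ifi204, 1.01 (SE 0.35, adjusted p = 0.396) for Ifi207 and 0.61 (SE 0.40, adjusted p = 0.761) for Ifi209. In cDC1 5 members were tested, and 2 had an unadjusted p under 0.05 in edgeR, as had 105 of all 1941 tested genes. Again edgeR and DESeq2 each called 0 members, where 0.258% of all tested genes were called higher and 0.0515% lower. Log2 fold changes in cDC1 were 0.55 (SE 0.23, adjusted p = 0.811) for Ifi203, 0.27 (SE 0.23, adjusted p = 0.957) for Mndal, 0.82 (SE 0.28, adjusted p = 0.58) for Ifi207, 0.46 (SE 0.30, adjusted p = 0.954) for Ifi209 and 0.47 (SE 0.26, adjusted p = 0.954) for Ifi211. In cDC2 4 members were tested, and 3 had an unadjusted p under 0.05 in edgeR, as had 113 of all 1514 tested genes. Here too edgeR and DESeq2 each called 0 members, where 0.462% of all tested genes were called higher and 0% lower. In this class of type 2 conventional dendritic cells the log2 fold changes were 0.63 (SE 0.24, adjusted p = 0.585) for Ifi203, 0.96 (SE 0.23, adjusted p = 0.0873) for Mndal, 0.57 (SE 0.34, adjusted p = 0.8288) for Ifi207 and 1.15 (SE 0.33, adjusted p = 0.256) for Ifi209. Mndal was called without BG replicate 5 (adjusted p 0.0418, log2 fold change 1.05). A missed threshold does not show that these cells did not respond.

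Whether classes differed in their response was tested as an interaction of class and treatment, with the mouse as a block. With all mice no member passed an adjusted p under 0.05 in any of the 6 pairs of classes, so a member called in 1 class and not in another was not shown to differ between them. For KCs against monocytes and BMDMs 0.0713% of 4210 genes passed, and of 9 members 0 had an unadjusted p under 0.05. For KCs against Cxcr6 CD4 T cells 0.0155% of 6435 genes passed and 1 of 9 members had an unadjusted p under 0.05, and for Cxcr6 CD4 T cells against other CD4 T cells 0.0736% of 6795 and 1 of 7. B cells against other CD4 T cells gave the lowest adjusted p-values, in a fit where 0.239% of 7544 genes passed and 3 of 7 members had an unadjusted p under 0.05. For these pairs the share of all genes at an unadjusted p under 0.05 was not computed. The log2 fold change of Ifi213 was higher in B cells by 0.94 (SE 0.23, adjusted p = 0.0898), and that of Ifi208 by 0.81 (SE 0.20, adjusted p = 0.0871). Without BG replicate 6 Ifi213 passed (difference 1.08, adjusted p = 0.0445), and without BG replicate 8 Ifi208 did (0.94, adjusted p = 0.0449). The pairs of sinusoidal endothelial cells with B cells and with monocytes and BMDMs were chosen after the values of Ifi209 had been seen. Its log2 fold change in sinusoidal endothelial cells less that in B cells was -0.60 (SE 0.31, adjusted p = 0.787), in a fit where 0.161% of 10552 genes passed. Against monocytes and BMDMs the difference was -1.05 (SE 0.36, adjusted p = 0.894) for Ifi209 and 0.80 (SE 0.19, adjusted p = 0.274) for Ifi207, in a fit where 0.0236% of 8485 genes passed. Without BG replicate 5 it was -1.45 for Ifi209 (adjusted p = 0.049), in a fit where 7 of 8812 genes passed.

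Of the other listed family genes, Ifi214, which lies between Ifi206 and Ifi213, was called higher in B cells and in T cells without Cd4 or Cd8. In B cells Ifi214 was at 49.0, 55.4, 54.3 and 61.4 CPM in the control mice and 112, 117, 129 and 101 CPM in the BG-treated mice. In T cells without Cd4 or Cd8 Ifi214 was at 33.1, 27.9, 32.9 and 40.4 CPM in the control mice and 56.2, 52.4, 58.9 and 57.0 CPM in the BG-treated mice. Its log2 fold changes were 1.10 (SE 0.12, adjusted p = 2.29e-06) and 0.79 (SE 0.11, adjusted p = 0.00107), and the groups did not overlap in either class. Part of its sequence is shared with Ifi209, so values of these 2 genes may not be separate. Ifi205, a gene of myeloid cells, was called in monocytes and BMDMs. Ifi205 was at 38.0, 85.5, 109 and 96.8 CPM in the control mice and 121, 179, 206 and 163 CPM in the BG-treated mice. Its log2 fold change was 1.12 (SE 0.26, adjusted p = 0.035), and its sequence is shared with Ifi211, so these values may not be separate. Aim2, which binds DNA and assembles the inflammasome with Pycard, had 4734 UMIs over all classes and was called in none of the 9 classes that tested it. Its log2 fold changes ran from -0.29 to 0.30, with 0 of 9 at an unadjusted p under 0.05 in edgeR and 0 called by DESeq2. No UMI of Ifi202b was counted in any class, and 3 UMIs, which a count of 0 allows, would be 0.0230 CPM over all of them.

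Genes that act with the family in sensing DNA, or that carry interferon signals to it, were taken from 2 fixed lists. Shares called higher are read against the percentages over all genes given above. Irf7, a transcription factor that drives type I interferon production, was called higher in 11 of the 12 classes that tested it. In cDC1 its call was lost without control replicate 3 or 4 or BG replicate 5, 7 or 8 (adjusted p 0.0761 to 0.0866), and DESeq2 did not call it. In patrolling monocytes its call was lost without control replicate 2 or 3 or BG replicate 5 (adjusted p 0.0737 to 0.15). Other genes named below include Stat2 and Irf9, which belong to the complex that interferon activates, Usp18, which restrains the interferon receptor, Zbp1, a sensor of Z-form nucleic acids, and Il1b, a cytokine that inflammasomes mature. In sinusoidal endothelial cells 1 of 18 tested genes of the DNA sensing list and 5 of 14 of the interferon signalling list were called higher, and 0 and 0 lower. These lists had median log2 fold changes of 0.01 and 0.19, against -0.01 over all tested genes. Among the called genes with the lowest adjusted p, the log2 fold changes were 2.09 (adjusted p = 3.60e-06) for Irf7, 1.36 (adjusted p = 0.000204) for Usp18, 1.13 (adjusted p = 0.000213) for Stat2 and 0.71 (adjusted p = 0.00169) for Irf9. The genes not called with the highest level were Jak1 and Ifnar2, with log2 fold changes of 0.12 (adjusted p = 0.879) and 0.08 (adjusted p = 0.929). In B cells 1 of 15 tested genes of the DNA sensing list and 5 of 14 of the interferon signalling list were called higher, and 0 and 0 lower. These lists had median log2 fold changes of 0.06 and 0.24, against -0.00 over all tested genes. Among the called genes with the lowest adjusted p, the log2 fold changes were 2.20 (adjusted p = 1.16e-07) for Irf7, 0.91 (adjusted p = 5.76e-06) for Irf9 and 1.79 (adjusted p = 8.53e-06) for Zbp1. The genes not called with the highest level were Samhd1 and Jak1, with log2 fold changes of 0.30 (adjusted p = 0.0726) and -0.09 (adjusted p = 0.85).

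In monocytes and BMDMs 2 of 16 tested genes of the DNA sensing list and 4 of 13 of the interferon signalling list were called higher, and 0 and 0 lower. These lists had median log2 fold changes of 0.10 and 0.30, against -0.00 over all tested genes. Among the called genes with the lowest adjusted p, the log2 fold changes were 1.65 (adjusted p = 0.000842) for Irf7, 2.00 (adjusted p = 0.00252) for Usp18 and 0.83 (adjusted p = 0.0156) for Zbp1. The genes not called with the highest level were Samhd1 and Ifngr1, with log2 fold changes of 0.35 (adjusted p = 0.263) and -0.50 (adjusted p = 0.191). In KCs 0 of 8 tested genes of the DNA sensing list and 1 of 9 of the interferon signalling list were called higher, and 1 and 0 lower. These lists had median log2 fold changes of -0.29 and 0.10, against -0.01 over all tested genes. The log2 fold changes of the called genes were -2.32 (adjusted p = 5.57e-05) for Il1b and 1.13 (adjusted p = 0.00206) for Irf7. Markers of monocytes and BMDMs were also lower in KCs after BG, and their part in the value of Il1b was not tested. Among the genes not called with the highest level was Samhd1, with a log2 fold change of -0.17 (adjusted p = 0.819). In T cells without Cd4 or Cd8 2 of 18 tested genes of the DNA sensing list and 5 of 14 of the interferon signalling list were called higher, and 0 and 0 lower. These lists had median log2 fold changes of 0.02 and -0.00, against -0.01 over all tested genes. Among the called genes with the lowest adjusted p, the log2 fold changes were 1.31 (adjusted p = 0.000155) for Irf7, 0.85 (adjusted p = 0.000183) for Irf9, 0.90 (adjusted p = 0.000335) for Zbp1 and 1.49 (adjusted p = 0.000702) for Usp18. The genes not called with the highest level were Jak1 and Ifngr1, with log2 fold changes of -0.11 (adjusted p = 0.448) and 0.08 (adjusted p = 0.719). In pDCs 0 of 14 tested genes of the DNA sensing list and 3 of 14 of the interferon signalling list were called higher, and 0 and 0 lower. These lists had median log2 fold changes of 0.08 and 0.21, against 0.00 over all tested genes. Called genes named here had log2 fold changes of 1.27 (adjusted p = 2.07e-06) for Irf7 and 0.66 (adjusted p = 0.00979) for Stat2. The genes not called with the highest level were Ifnar2 and Pycard, with log2 fold changes of 0.16 (adjusted p = 0.772) and -0.07 (adjusted p = 0.952). In the classes whose lists are described here, calls of 3 of these named genes were lost without single mice. This held for Zbp1 in monocytes and BMDMs without BG replicate 7, control replicate 2 and control replicate 4 (adjusted p 0.0503 to 0.0714). This held for Irf7 in KCs without control replicate 3 (adjusted p 0.0528). This held for Stat2 in pDCs without BG replicate 6 and BG replicate 7 (adjusted p 0.054 to 0.0641).

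The share of cells with at least 1 UMI of any member was also compared. Cells were thinned to 1500 UMIs each so that depth did not set the share, which left out shallower cells. In sinusoidal endothelial cells it was 78.5 ± 2.33% in control and 90.8 ± 1.51% in BG-treated mice (exact permutation p = 0.0286, adjusted p = 0.04, two-sided, n = 4 mice each, over 2233 of 2784 and 2492 of 2955 cells). In B cells it was 73.2 ± 1.78% in control and 87.0 ± 1.98% in BG-treated mice (exact permutation p = 0.0286, adjusted p = 0.04, exact test, 4319 of 6234 and 1813 of 2433 cells). In T cells without Cd4 or Cd8 it was 66.4 ± 1.38% in control and 77.3 ± 0.365% in BG-treated mice (exact permutation p = 0.0286, adjusted p = 0.04, 9799 of 10246 and 7664 of 7984 cells). All 3 shares rose. In these classes every BG-treated mouse lay above every control mouse, and 0.0286 is the smallest p that 4 against 4 mice allow. Monocytes and BMDMs were at 79.7 ± 4.26% in control and 89.9 ± 3.37% in BG-treated mice (exact permutation p = 0.0571, adjusted p = 0.0667, 235 of 250 and 239 of 248 cells). KCs were at 84.0 ± 1.40% in control and 93.3 ± 2.68% in BG-treated mice over 3 control and 4 BG-treated mice (exact permutation p = 0.0571, adjusted p = 0.0667, 123 of 166 and 170 of 225 cells), where the smallest possible p is 0.0571. The p-values were adjusted over 14 classes, of which 10 had an adjusted p of 0.04. The remaining 7 of those 10 were patrolling monocytes, cDC1, cDC2, pDCs, Cxcr6 CD4 T cells, other CD4 T cells and CD8 T cells, with means of 47.6 to 68.4% in control and 64.8 to 85.2% in BG-treated mice. NK cells were at 61.1 ± 1.31% in control and 65.4 ± 5.85% in BG-treated mice (exact permutation p = 0.171, adjusted p = 0.185). Without thinning the shares were 86.4% and 94.6% in sinusoidal endothelial cells, 78.5% and 91.0% in B cells, 83.0% and 92.5% in T cells without Cd4 or Cd8, 91.5% and 95.3% in monocytes and BMDMs and 91.2% and 90.0% in KCs, in control and BG-treated mice. The adjusted p of the first 3 was then 0.0714 (exact permutation), the lowest of any class, so that the calls were lost. With so few mice, an adjusted p here depends on how many other classes also reach the smallest possible p. The move from 0.04 to 0.0714 therefore cannot decide whether the evidence in these 3 classes was weaker. For KCs the direction was thus turned without thinning, and the cells of control replicate 1 entered only there. Free RNA in the droplets gives some cells a UMI of genes they do not express. Hepatocytes, where the family was lowest, had 16.3 ± 8.34% in control and 23.0 ± 12.8% in BG-treated mice at 1500 UMIs, with median depths of 1164 UMIs in hepatocytes against 2622 in sinusoidal endothelial cells, 1769 in B cells, 2878 in T cells without Cd4 or Cd8, 4354 in monocytes and BMDMs and 2755 in KCs before thinning.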

How the data were processed

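Cells of 8 mouse livers, 4 of control and 4 of BG-treated mice, were profiled by single-cell RNA sequencing with the 10x Genomics 3' v3.1 chemistry. The authors deposited counts of UMIs per gene and barcode, made with Cell Ranger 6.1.2 on mm10 with introns included, per the submitters' processing notes and the study's methods. The counts are not normalized.

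Barcodes with 200 to 2500 genes and at most 30% mitochondrial UMIs were kept, and library pairs shared at most 26 barcodes (0.418% of the smaller library). A cell joined a class when it held UMIs of at least 2 gate markers of that class and its scaled marker score was at least 1.5 times that of any other class. Once 3 gate markers of a more specific class were found (KCs, patrolling monocytes, cDC1, pDCs or plasma cells), markers of the related broader class did not count against it, so KCs may hold monocyte markers. A cell with at least 2 T cell gate markers was never an NK cell. These limits were set after class sizes and check markers had been seen, without use of p200 values. As doublet handling, 3507 cells with mixed markers were left out, along with 1391 without a class, and no doublet caller was run. UMIs were summed per mouse and class, a mouse entering with at least 10 cells and a class with at least 3 mice per group. In edgeR 4.0.16 (R 4.3.3) genes passed filterByExpr, libraries were scaled by TMM (factors 0.864 to 1.194), and groups were compared by the quasi-likelihood test with Benjamini-Hochberg adjustment. The scripts were tested on simulated data with known changes, drawn from the mean levels of KCs and B cells with a fixed spread between mice. Of tested genes changed 2-fold, 54.0% were recovered in simulated KCs and 51.0% in simulated B cells. Of those changed 4-fold, 100% were recovered in both. False calls numbered 5 among 2144 genes tested and 6 among 8446. Changes near 2-fold or below can therefore be missed. Shares of cells with a UMI were tested by exact permutation of mice after thinning to 1500 UMIs, and intervals and limits from counts cover counting error only. Levels across classes were compared without a test. Promoter sequences and motif positions were read from RefSeq tables of GRCm38.p6 with Python 3.11.15, numpy 2.4.6, scipy 1.17.1 and pandas 2.3.3.

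The members and gene lists were chosen with earlier results of these data known. All 9 members were named in every class that tested them, with values of every mouse where a member was called and in KCs and monocytes and BMDMs. Of the DNA sensing and interferon signalling lists, up to 4 called genes with the lowest adjusted p and up to 2 uncalled genes with the highest level were named per class. A gene of these lists entered their counts and medians and is not reported here by its own values. Genes most like the summed family were named by Pearson r over classes. Alternatives were RLE size factors, no filter, DESeq2 1.42.0, leaving out each mouse, up to 5000 genes per cell, at most 10% mitochondrial UMIs, a stricter gate and cells without T cell receptor or CD3 UMIs. A pair of class comparisons was added after the data had been seen. Basophils, plasma cells, bile duct cells and stellate cells were too few to test, and experiments of the study beyond these 8 libraries were not analysed here.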

Additional observations from a re-analysis of the deposited data

Results flagged for a closer look

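In 4 of 92 groups of 4 mice checked, the highest or lowest mouse lay farther from its neighbour than Dixon's 95% critical value for 4 values allows, and chance gives about 1 in 20. Ifi209 in KCs was highest in control replicate 3, at 86.2 CPM against 58.6 CPM in the next mouse. Ifi203 in monocytes and BMDMs was lowest in BG replicate 5, at 413 CPM against 511 CPM in the next mouse, and this is the library that stood apart in its barcodes. Without it Ifi203 had a log2 fold change of 0.51 (adjusted p = 0.141) there. Ifi209 in monocytes and BMDMs was highest in control replicate 4, at 227 CPM against 179 CPM, and its call held without that mouse. Mndal in sinusoidal endothelial cells was highest in BG replicate 7, at 619.8 CPM against 559 CPM, and its call held without that mouse too.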

How the results depend on the processing

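Of the 36 calls of a member in a class, 36 held with RLE size factors, without the filter and with the stricter gate, 35 with up to 5000 genes per cell and 29 with DESeq2, which gave no adjusted p for 1 and lost 6. Of 24 that could be fitted in cells without T cell receptor or CD3 UMIs, 22 held. At most 10% mitochondrial UMIs, which left 13.5% of B cells and 14.0% of sinusoidal endothelial cells, kept 6 of the 26 that could be fitted. Leaving out a single mouse kept between 28 and 35 calls.

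Counts of called members moved as follows, and a member that did not pass the filter under a setting could not be called there. In KCs (1) they were 2 without the filter, 0 with DESeq2 and 0 in cells without T cell receptor or CD3 UMIs, where Ifi211 was not tested. In monocytes and BMDMs (7) they were 4 in cells without T cell receptor or CD3 UMIs and 0 at the mitochondrial limit. In cDC1 (0) they were 2 with up to 5000 genes. In B cells (6) they were 0 at the mitochondrial limit, and in sinusoidal endothelial cells (8) they were 4 there. In Cxcr6 CD4 T cells (1) they were 2 without the filter, 4 with up to 5000 genes and 0 at the mitochondrial limit. In other CD4 T cells (4) they were 2 with DESeq2 and 0 at the mitochondrial limit. In CD8 T cells (2) they were 1 with DESeq2, 5 with up to 5000 genes and 0 at the mitochondrial limit. In T cells without Cd4 or Cd8 (3) they were 5 without the filter, 5 with DESeq2 and 5 with up to 5000 genes. DNA sensing genes called in monocytes and BMDMs (2) were 1 with DESeq2. Without 1 mouse, called members ranged from 0 to 1 in KCs, 3 to 7 in monocytes and BMDMs, 1 to 4 in CD8 T cells, 0 to 2 in Cxcr6 CD4 T cells and 0 to 1 in cDC2. Called DNA sensing genes ranged from 0 to 2 in monocytes and BMDMs, 0 to 1 in sinusoidal endothelial cells, 1 to 2 in T cells without Cd4 or Cd8 and 0 to 1 in pDCs, and interferon signalling genes from 0 to 1 in KCs and 2 to 4 in monocytes and BMDMs. Members whose response differed ranged from 0 to 1 for B cells against other CD4 T cells and from 0 to 1 for sinusoidal endothelial cells against monocytes and BMDMs.

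The difference in the share of cells with a member's UMI, BG minus control in percentage points, turned to -1.19 in KCs without thinning. In monocytes and BMDMs it was 15.1 at 1000 UMIs (exact permutation, adjusted p = 0.0357). Without thinning it was 12.6 in B cells, 9.52 in T cells without Cd4 or Cd8 and 8.13 in sinusoidal endothelial cells (exact permutation, adjusted p = 0.0714 for each). As stated above, these adjusted p-values also depend on how many other classes reach the smallest possible p. Log2 fold changes of members that were not called turned sign in 12 cases. Ifi209 in sinusoidal endothelial cells had 0.13 with DESeq2, 0.25 with up to 5000 genes and values above 0 without control replicate 2 (0.18), BG replicate 6 (0.25) or BG replicate 7 (0.069), in a range of -0.51 to 0.25 without 1 mouse. Ifi209 in NK cells had -0.063 without control replicate 1 and -0.18 without BG replicate 5, in a range of -0.18 to 0.22 without 1 mouse, -0.037 with the stricter gate and -0.028 in cells without T cell receptor or CD3 UMIs. Ifi203 had -0.34 in NK cells at the mitochondrial limit and -0.029 in KCs without T cell receptor or CD3 UMIs, and Mndal had -0.067 in other CD4 T cells at the mitochondrial limit. Fewer cells and genes are tested under the mitochondrial limit, and the cause of the other changes was not tested. No paired analysis was possible because control mice carry replicate numbers 1 to 4 and BG-treated mice 5 to 8. The mitochondrial limit could not be fitted for KCs, patrolling monocytes, cDC1, cDC2, pDCs, neutrophils and hepatocytes, nor the stricter gate for cDC2, since fewer than 3 mice per group remained. Depth limits the rare classes most, with 676 UMIs of all members in control KCs.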

Other observations

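Neutrophils, of which 165 were kept, had no member that passed the filter on low counts. Ifi204 was at 61.4, 107, 203 and 37.6 CPM in the control mice and 304, 327, 581 and 506 CPM in the BG-treated mice. These values rested on 14 and 55 UMIs, and the groups did not overlap. Ifi204 was called without the filter (log2 fold change 2.11, adjusted p = 0.0151, edgeR) and by DESeq2 (2.23, adjusted p = 0.0254). Summed over the 9 members, neutrophils were at 249.6 ± 66.3 CPM in control and 742 ± 289 CPM in BG-treated mice. In pDCs Ifi213 did not pass the filter either. It was at 0, 12.5, 5.47 and 8.14 CPM in the control mice and 43.2, 18.9, 26.6 and 11.2 CPM in the BG-treated mice, with overlapping groups, and was called without the filter (log2 fold change 1.58, adjusted p = 0.00819, edgeR) but not by DESeq2 (1.79, adjusted p = 0.299).

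Genes that flank the family on chromosome 1 had few UMIs. Before Ifi206 lie Mptx2, Ackr1, a decoy receptor for chemokines, and Cadm3, with 0, 527 and 178 UMIs over all classes. After Ifi203 lie the olfactory receptor genes Olfr433, Olfr432 and Olfr430, with 64, 8 and 0. In sinusoidal endothelial cells Ackr1 was at 57.7, 37.3, 29.9 and 28.9 CPM in the control mice and 25.0, 17.9, 19.8 and 25.2 CPM in the BG-treated mice. The groups did not overlap, and BG-treated mice were lower. Ackr1 was not one of the listed genes and was named after its values had been seen.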
